A study of Mus musculus with 8 samples.

Results

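The platelet-derived growth factor (PDGF) family was followed in ChIP-seq peak lists from Lewis lung carcinoma (LLC) tumors. Its 6 genes, chosen by name, were the ligands Pdgfa, Pdgfb, Pdgfc and Pdgfd and the receptors Pdgfra and Pdgfrb, among 22367 protein-coding genes of the GENCODE vM1 annotation. Sensitive and resistant tumors were compared, LLC-NR, which responds to the VEGF inhibitor VEGF-Trap, and LLC-R, which was derived from LLC cells by 5 rounds of selection in mice under continuous VEGF-Trap. Both were grown under the skin of the right flank of female C57BL/6J mice that were 6 to 8 weeks old when purchased, and were taken at about 500 mm3. Chromatin was cut with micrococcal nuclease and precipitated for H3K4me3, H3K9ac, H3K27me3 or H3K36me3, 1 library for each line and mark and thus 8 libraries. LLC-R is a single selected subline, whether tumors were pooled for a library is not given in the sources used here, and the methods name no drug given to these isografts.

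PDGF ligands are secreted as dimers and act on a pair of receptor tyrosine kinases. PDGF-A and PDGF-C bind mainly PDGFR-alpha, PDGF-D binds mainly PDGFR-beta, and PDGF-B binds both. In tumors, PDGF-B from endothelial cells recruits pericytes through PDGFR-beta, fibroblasts carry both receptors, and PDGF-C from stroma is a known alternative signal for vessel growth when VEGF is blocked. H3K4me3 and H3K9ac mark promoters of active genes, H3K27me3 marks genes silenced by Polycomb, and H3K36me3 accumulates over transcribed gene bodies. The tumors were bulk tissue with host stroma, so fewer cells of a type and less mark per cell cannot be told apart.

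The regions just upstream of the start are shown for Pdgfc, Pdgfd and Pdgfra, since Pdgfc and Pdgfd had the lowest and the highest H3K4me3 ratio of the family and the transcription start site (TSS) of Pdgfra lay in a gap between peaks. Each run is the 200 bases before the start of the RefSeq transcript (GRCm38), placed on mm9 by exact match and written 5′ to 3′. Capitals mark a match on either strand to 1 of 4 motifs. The first is the GC box, GGGCGG. The next is the TATA box with the letters TATAAA. The others are the CCAAT box and the core of the hypoxia response element, which is ACGTG. Pdgfc lies at chr3:80840138-80840337, Pdgfd at chr9:6168286-6168485 and Pdgfra at chr5:75548076-75548275, all on the plus strand and outside annotated exons of their gene.
Pdgfc: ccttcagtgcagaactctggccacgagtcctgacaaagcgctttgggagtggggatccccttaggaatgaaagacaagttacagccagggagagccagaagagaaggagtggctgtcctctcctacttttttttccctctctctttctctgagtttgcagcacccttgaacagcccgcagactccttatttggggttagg
Pdgfd: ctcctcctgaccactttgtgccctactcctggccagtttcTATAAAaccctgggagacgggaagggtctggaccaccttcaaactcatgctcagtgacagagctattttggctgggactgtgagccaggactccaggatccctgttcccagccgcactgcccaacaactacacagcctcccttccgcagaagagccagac
Pdgfra: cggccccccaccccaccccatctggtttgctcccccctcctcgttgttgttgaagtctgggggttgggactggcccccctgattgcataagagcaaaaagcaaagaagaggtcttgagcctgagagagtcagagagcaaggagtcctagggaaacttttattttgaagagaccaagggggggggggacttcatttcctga
Pdgfd held 1 match to TATAAA, in the part of its window far from the start. Of 32841 RefSeq promoter windows of this length, 9.96% held such a match. Whether this match acts as a TATA box was not tested. No GC box, CCAAT box or hypoxia core was found in these 3 windows, against 31.1%, 29.4% and 14.0% of all windows. The windows held 3, 3 and 2 CpG dinucleotides, with a median of 5 over all windows.

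The ligand genes fell among CpG-rich promoters (HCPs) and the receptor genes among promoters of intermediate CpG level (ICPs). Coordinates are of mm9, a promoter is the interval from 1 kb before the TSS to 0.5 kb past it, and a gene body is the rest of the gene. Pdgfa (chr5:139451968-139473324, minus strand) had 87 CpG dinucleotides in its promoter, the most of the family. Pdgfb (chr15:79826330-79845238, minus strand) had 65 and Pdgfc (chr3:80840338-81017962, plus strand) had 69. Pdgfd (chr9:6168612-6378843, plus strand) had 36 with a G+C content of 48.3%, the lowest of the 4 ligands. Pdgfra (chr5:75548316-75594229, plus strand) had 42 and Pdgfrb (chr18:61204804-61244715, plus strand) had 36. The gene bodies ranged from 18.4 kb for Pdgfb to 210 kb for Pdgfd.

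The files list positions of 147-bp peaks without a height, so the level of a mark is the number of peak midpoints in a promoter. At most 9 peaks were counted in any promoter. The LLC-NR and LLC-R libraries held 5678337 and 5660458 peaks for H3K4me3, 8547101 and 7853593 for H3K9ac, 7245090 and 9101721 for H3K27me3 and 6432447 and 8747519 for H3K36me3. The LLC-R library of H3K27me3 thus held 1.26 times and that of H3K36me3 1.36 times the peaks of LLC-NR. Ratios between lines were therefore taken relative to all promoters of the same libraries, and percentiles are ranks among all promoters of 1 library, with ties at their middle rank. With 1 library per line and mark, no difference between the lines has a replicate check, no test was made, and intervals are exact 95% binomial intervals that cover counting error only. They treat peaks as independent counts, although the space in a region bounds the number of peaks. How well their width matches the real counting error was not tested.

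Relative to all promoters and counted at the TSS of the largest number of transcripts, no PDGF promoter differed between LLC-NR and LLC-R by 1.5-fold or more in H3K4me3, H3K9ac or H3K27me3. In H3K4me3, 0 of 6 were higher in LLC-R by that fold, against 8.63% of all promoters, and 0 of 6 were lower, against 7.66%. In H3K9ac the shares of all promoters were 4.5% higher and 6.8% lower, with 0 of 6 in either direction. In H3K27me3 they were 12.4% higher and 4.82% lower, again with 0 of 6 in either direction. With the most upstream TSS of every gene, an alternative added after the data were seen, Pdgfd passed 1.5-fold in H3K4me3, with 2 and 4 peaks and a log2 ratio of 0.93, and 8.59% of all promoters were higher. Division by uniquely mapped reads in place of the mean promoter also changed these calls. Higher in LLC-R were then Pdgfd in H3K4me3 (0.75, with 14.7% of all promoters) and Pdgfa, Pdgfc and Pdgfra in H3K9ac (0.79 for Pdgfc and Pdgfra and more for Pdgfa, with 59.8%). All members but Pdgfd were lower in H3K27me3, at -1.08 to -0.87, with 73.1% of all promoters. By this scaling the median of all promoters lay at 0.26, 0.61 and -0.84 for H3K4me3, H3K9ac and H3K27me3. Summed over the 6 genes, H3K4me3 went from 35 peaks in LLC-NR to 32 in LLC-R, H3K9ac from 38 to 35 and H3K27me3 from 35 to 40. Relative to all promoters, the log2 ratio of LLC-R over LLC-NR was -0.04 for H3K4me3 (interval -0.77 to 0.70), 0.03 for H3K9ac (-0.67 to 0.73) and -0.07 for H3K27me3 (-0.76 to 0.63). These counts are small, and differences of the family within those intervals were not detectable by this measure.

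**Figure D1:**
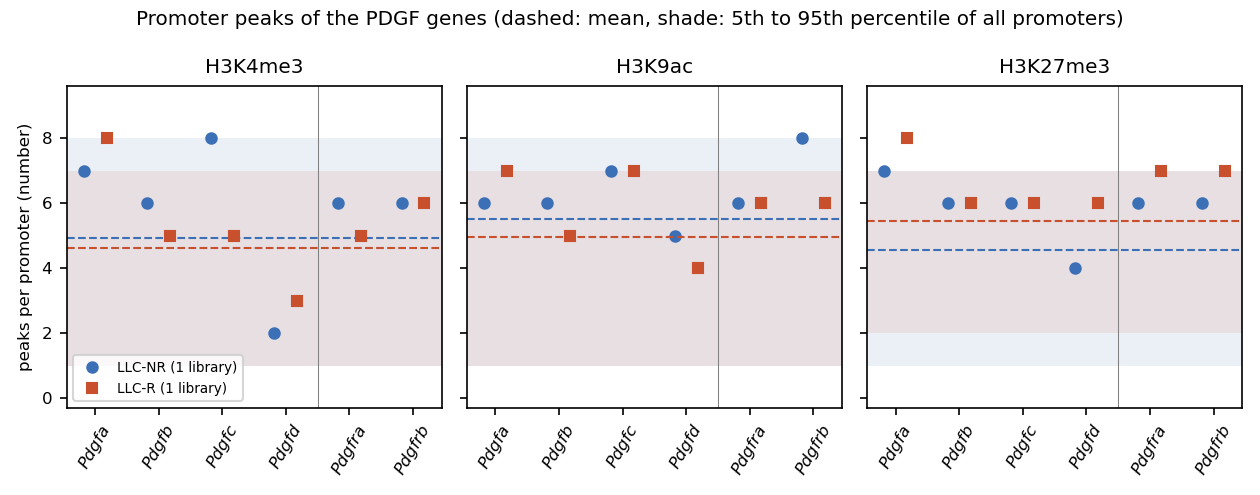
Number of peaks in each PDGF promoter (y axis) for 3 marks, with circles for LLC-NR and squares for LLC-R, 1 library each; dashed lines are the means and shades the 5th to 95th percentiles of all promoters. Pdgfd sits at 2 and 3 peaks of H3K4me3, below both dashed lines, and the other 5 genes lie at 5 to 8, above them.

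Without scaling, 2 of 6 promoters had more H3K4me3 peaks in LLC-R, where 25.6% of all promoters did, and 3 had fewer, where 43.5% did. For H3K9ac, 1 had more (19.2% of all) and 3 had fewer (50.6%). For H3K27me3, 4 had more (58.5%) and 0 had fewer (15% of all). The direction was thus mixed in the active marks. In H3K27me3 no member had fewer peaks, in a mark where most promoters had more in LLC-R. The part of library size in these counts was not tested.

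Pdgfa, which encodes the PDGF-A chain, had the most H3K4me3 of the family in LLC-R. Its promoter held 7 H3K4me3 peaks (LLC-NR) and 8 (LLC-R), at percentiles 85.0 and 98.9 of all promoters. H3K9ac went from 6 peaks to 7, and H3K27me3 from 7 to 8. The log2 ratios relative to all promoters were 0.27, 0.34 and -0.06. All 3 marks thus gained 1 peak, and only H3K27me3 had a log2 ratio below 0. The 2408 promoters with 7 H3K27me3 peaks in LLC-NR averaged 6.52 in LLC-R, below the 8 of Pdgfa. Of the 4206 promoters with 7 H3K4me3 peaks in LLC-NR, 5.52% had 8 or more in LLC-R.

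Pdgfa has 7 annotated TSSs with 1 transcript each, and the most upstream was used. The RefSeq start lies 2426 bp downstream of it, and the annotated TSS beside that start, at 2417 bp, was counted as well. There, H3K4me3 had 6 peaks (LLC-NR) and 8 (LLC-R), H3K9ac 6 and 5, and H3K27me3 6 and 7. H3K36me3 had 1 peak in LLC-NR and 4 in LLC-R around that start. The higher H3K4me3 count in LLC-R was thus present at both starts, and the H3K9ac count had the opposite direction at the downstream one. The uncharacterized gene 6330403L08Rik, on the other strand, overlaps Pdgfa and starts 2.31 kb from its TSS, with 6 and 7 H3K4me3 peaks, and peaks carry no strand.

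Pdgfb, which encodes the PDGF-B chain, stayed nearer the middle of all promoters in the active marks than in H3K27me3 of LLC-NR. H3K4me3 was 6 peaks (LLC-NR) and 5 (LLC-R), percentiles 64.3 and 52.1, and H3K9ac was 6 and 5, percentiles 54.3 and 43.6. H3K27me3 was 6 in both, percentiles 76.2 and 57.2. The log2 ratios were -0.16, -0.10 and -0.24. Each active mark lost 1 peak, and of the 5038 promoters with 6 H3K4me3 peaks in LLC-NR, 46.7% had 5 or fewer in LLC-R. Its nearest neighbours were Cbx7, which encodes a Polycomb protein, at 24.8 kb, with 5 and 4 H3K4me3 peaks, and the ribosomal protein gene Rpl3 at 63.0 kb, with 5 in both.

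Pdgfc, which encodes a ligand that must be cleaved to become active, had the lowest ratio of H3K4me3 in the family. Its promoter held 8 H3K4me3 peaks in LLC-NR (percentile 97.1) and 5 in LLC-R (percentile 52.1). The log2 ratio was -0.54, at percentile 10 of all promoters and short of 1.5-fold. Of the 1194 promoters with 8 H3K4me3 peaks in LLC-NR, 18.9% had 5 or fewer in LLC-R, and their mean was 6.30 ± 0.97 (SD). H3K9ac was at 7 peaks in both lines (percentiles 82.6 and 92.1, log2 ratio 0.14), and H3K27me3 at 6 in both (log2 ratio -0.24). The lower H3K4me3 count was therefore not shared by H3K9ac, the other active mark. At its other TSSs, 756 and 1008 bp downstream, H3K4me3 was 7 and 6 peaks at both, with a log2 ratio of -0.12, so the difference was smaller there.

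Pdgfd, the other ligand activated by cleavage, was the member with little H3K4me3. With 2 H3K4me3 peaks (LLC-NR) and 3 (LLC-R), its promoter stood at percentiles 10.8 and 19.4 of all promoters. Among the 12045 HCPs it stood at percentiles 1.53 and 3.83. It had 5 and 4 peaks of H3K9ac and 4 and 6 of H3K27me3. Windows of 1.5 kb more than 5 kb from any annotated TSS averaged 3.18 (LLC-NR) and 3.19 (LLC-R) H3K4me3 peaks. Both H3K4me3 counts of Pdgfd lay below that background. The log2 ratio of H3K4me3 was 0.57, the highest of the family and at percentile 90.5 of all promoters, but it rests on 1 added peak. Promoters with 2 H3K4me3 peaks in LLC-NR had 2.91 ± 1.41 in LLC-R (SD, 1273 promoters), so the 3 peaks of Pdgfd lay near their mean. The ratio of H3K27me3 was 0.30, and 49.7% of the 4065 promoters with 4 H3K27me3 peaks in LLC-NR reached 6 or more in LLC-R. Counted from the TSS 49 bp upstream, H3K4me3 was 2 and 4 peaks, H3K9ac 6 and 5, and H3K27me3 4 and 7, and the H3K4me3 ratio of 0.93 was past 1.5-fold. The RefSeq start of Pdgfd lies 175 bp upstream of the TSS used, and promoter peaks were not counted from it. Whether that ratio or the state of Pdgfd holds at the RefSeq start was thus not tested.

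Pdgfra, the receptor of mesenchymal progenitors and fibroblasts, had 6 H3K4me3 peaks (LLC-NR) and 5 (LLC-R). Among 3962 ICPs these lay at percentiles 83.4 and 71.8, and among all promoters at 64.3 and 52.1. H3K9ac was 6 in both lines, and H3K27me3 was 6 and 7. The log2 ratios were -0.16, 0.14 and -0.03. Among all promoters H3K9ac lay at percentiles 54.3 and 71.9 and H3K27me3 at 76.2 and 84.2. At its other TSS, 3875 bp downstream, H3K4me3 was 7 and 5 peaks. The neighbouring receptor gene Kit, 377 kb away, had 6 H3K4me3 peaks in both lines, and the homeobox gene Gsx2, 74.4 kb away on the other side, had 5 and 3.

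Pdgfrb, the receptor of pericytes and vascular smooth muscle, had 6 H3K4me3 peaks in both lines. H3K9ac went from 8 peaks in LLC-NR (percentile 97) to 6 in LLC-R (percentile 71.9), and H3K27me3 from 6 to 7. The log2 ratios were 0.09, -0.25 and -0.03. The loss of 2 H3K9ac peaks was that of the average promoter starting from 8, since the 1230 such promoters had 6.03 ± 1.02 peaks in LLC-R (SD). Cdx1, a homeobox gene that starts 8.95 kb away on the opposite strand, had 3 and 4 H3K4me3 peaks. Csf1r, the related receptor of macrophages, 20.5 kb downstream, had 4 in both lines.

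Ordered by H3K4me3 in LLC-NR, the genes were Pdgfc (8), Pdgfa (7), Pdgfb, Pdgfra and Pdgfrb (6 each) and Pdgfd (2). In LLC-R the order was Pdgfa (8), Pdgfrb (6), Pdgfb, Pdgfc and Pdgfra (5 each) and Pdgfd (3). Neighbours in these orders differ by 1 or 2 peaks except for Pdgfd in LLC-NR, and without replicates no spread over samples can be set beside them.

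A promoter was called active when H3K4me3 or H3K9ac exceeded its mean over all promoters and H3K27me3 did not, repressive in the opposite case, bivalent when both conditions held, and none otherwise. By this rule 5 of the 6 PDGF promoters were bivalent, the same 5 in both lines. Over all promoters 48.3% were bivalent in LLC-NR and 52.9% in LLC-R. Pdgfd alone changed, from none to repressive, and 37.9% of all promoters changed state. No member was active in either line, where 29.8% and 28.4% of all promoters were. Pdgfd crossed the H3K27me3 mean, at 4.55 (LLC-NR) and 5.45 (LLC-R), with its 4 and 6 peaks. Its H3K9ac, 5 and 4 peaks, stayed under means of 5.51 and 4.96. Counted from its TSS 49 bp upstream, the H3K9ac counts of 6 and 5 passed those means, and Pdgfd was active in LLC-NR and bivalent in LLC-R. Background windows of 1.5 kb, more than 5 kb from any annotated TSS, averaged 4.20 (LLC-NR) and 5.26 (LLC-R) H3K27me3 peaks. In H3K9ac they averaged 4.87 and 4.48. The thresholds of these 2 marks thus lay little above background, and a bivalent or repressive state does not by itself show H3K27me3 enrichment.

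The Pdgfra and Pdgfb start sites lay in a gap between peaks in every promoter-mark library. At Pdgfra the nearest upstream midpoint was between -204 and -182 bp and the nearest downstream one between 82 and 93 bp in all 6 libraries of H3K4me3, H3K9ac and H3K27me3, leaving 118 to 150 bp free of peaks. The RefSeq start, 40 bp upstream of the annotated TSS, lies inside that gap. At Pdgfb the midpoints were between -141 and -108 bp and between 111 and 203 bp, leaving 83 to 175 bp. A TSS free of peaks in all 6 libraries was found for 15.8% of all genes, and for 2 of the 6 members.

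**Figure D2:**
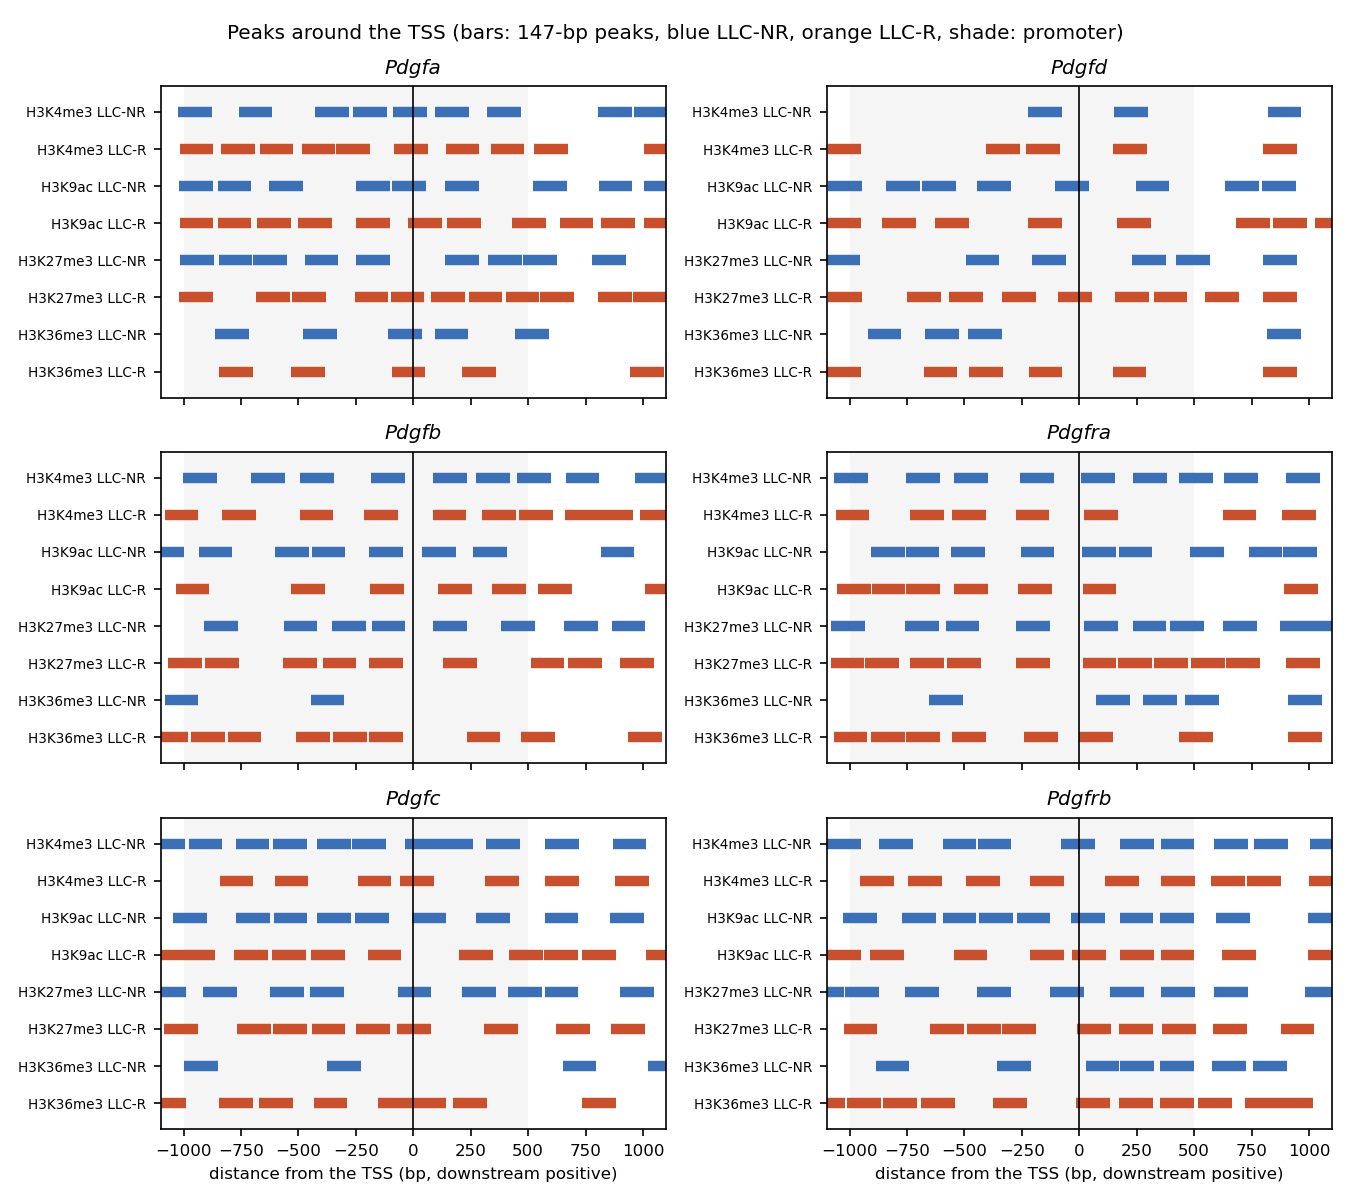
Peaks around the TSS of each PDGF gene, with distance from the TSS in bp on the x axis and 1 row per library; bars are 147-bp peaks (blue LLC-NR, orange LLC-R) and the shade is the promoter. At Pdgfra the bars of the 3 promoter marks leave a gap of 118 to 150 bp at the TSS, and at Pdgfrb all 8 rows have a bar at 425 to 435 bp.

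The TSS of the other genes was under a peak in some of the 6 libraries. A peak covered the TSS of Pdgfa in 5, of Pdgfc in 5, of Pdgfrb in 5 and of Pdgfd in 2. H3K4me3 peaks covered 42.0% (LLC-NR) and 39.1% (LLC-R) of all TSSs. The 2 H3K4me3 peaks of Pdgfd in LLC-NR, at -151 and 226 bp, returned in LLC-R at -159 and 222 bp, on either side of the TSS, and the added peak lay at -331 bp. In this gene the low number of H3K4me3 peaks went with the same positions in both lines.

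Peak positions at the PDGF promoters were kept between the lines about as often as elsewhere. Of 35 H3K4me3 peaks in LLC-NR, 14 (40.0%) had a peak within 20 bp in LLC-R, against 37.5% over all promoters. For H3K9ac it was 16 of 38 (42.1%, against 40.3%) and for H3K27me3 14 of 35 (40.0%, against 35.3%). Pdgfra kept 4 of 6 H3K4me3 peaks and 5 of 6 H3K9ac peaks. A midpoint held by all 8 libraries within 20 bp was found in 7.1% of all promoters and in 1 of the 6, that of Pdgfrb, at 425 to 435 bp downstream of the TSS.

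H3K36me3 over the gene bodies showed the receptor Pdgfra highest and the ligand Pdgfd lowest in both lines. Levels are peaks per kb of gene body, with means over 19581 genes of 2.99 in LLC-NR and 3.75 in LLC-R. Pdgfra had 3.74 and 4.27 (percentiles 74.8 and 78.7), and Pdgfd had 2.48 and 3.59 (percentiles 25.2 and 22.5). Pdgfrb had 2.94 and 4.11, Pdgfb 2.93 and 3.91, and Pdgfa 2.73 and 3.69. Every gene had more H3K36me3 peaks in LLC-R, where the library held more, and the difference was smallest for Pdgfc, with 3.65 and 3.83 (percentiles 70.9 and 37.8).

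**Figure D3:**
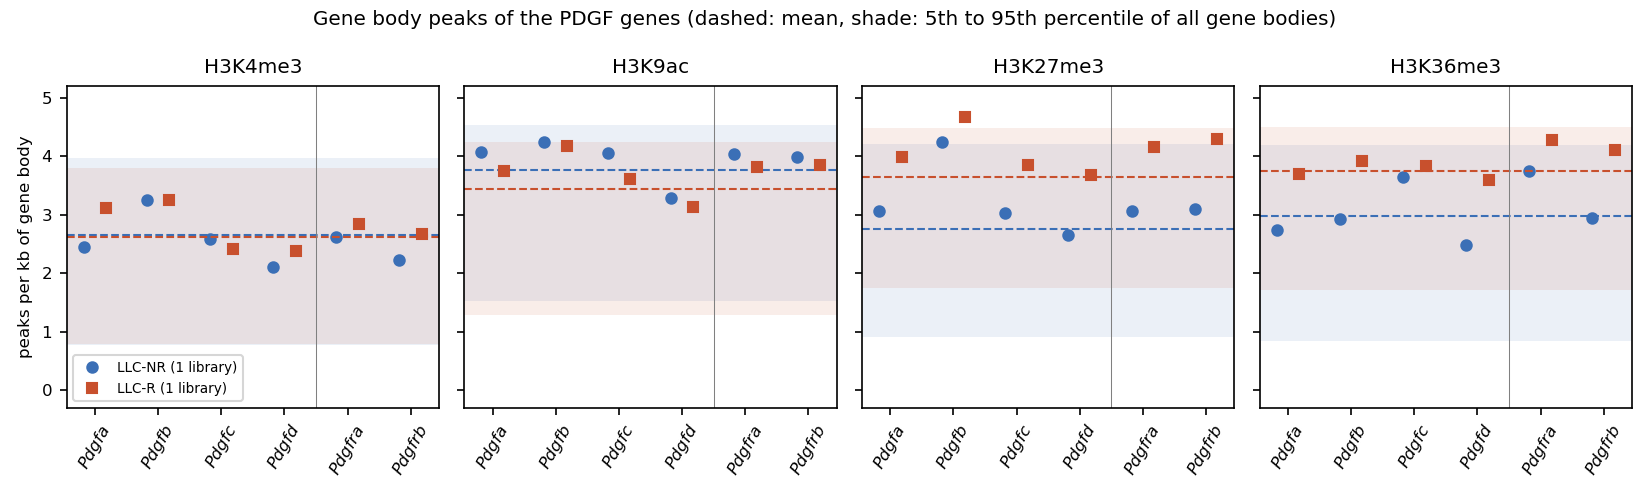
Peaks per kb of gene body (y axis) of the PDGF genes for 4 marks, circles for LLC-NR and squares for LLC-R, 1 library each; dashed lines are means and shades the 5th to 95th percentiles of all gene bodies. Pdgfb lies near the upper edge of the shade in H3K27me3, at 4.24 and 4.67 peaks per kb.

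Relative to all genes, the summed H3K36me3 of the 6 bodies had a log2 ratio of -0.04 (interval -0.14 to 0.06). Pdgfc was lower in LLC-R by this measure, with -0.28 (-0.43 to -0.12), and Pdgfd higher, with 0.18 (0.02 to 0.35), while the intervals of the other 4 included 0. Ranked among all gene bodies by the ratio of peaks per kb, with a pseudocount of 10% of the mean, they lay at percentiles 12.1 (Pdgfc) and 74.9 (Pdgfd). The share of all bodies with an interval that excludes 0 was not counted. Because the number of peaks that fits in a gene body is bounded, each gene was also set beside genes with bodies of 10 kb or more and a level within 0.1 peaks per kb of its own in LLC-NR, a comparison chosen after the data were seen. The ratio of Pdgfc was then -0.10 (-0.26 to 0.05) and that of Pdgfd 0.00 (-0.16 to 0.17). Of the 1220 genes like Pdgfc, 4.43% were lower than it in LLC-R, and their mean was 4.16 ± 0.18 (SD).

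Along the gene bodies, Pdgfa was low in H3K36me3 near its 5′ end. The first of 10 equal parts of its body held 0.96 peaks per kb in LLC-NR and 1.44 in LLC-R, where the means over 13156 genes with bodies of 10 kb or more were 2.94 and 3.81. The next part held 0.96 in LLC-NR and 3.36 in LLC-R. These 2 parts hold the downstream starts of Pdgfa, with their 6 to 8 H3K4me3 peaks. Pdgfra rose from 2.42 in part 1 to 4.62 in part 6 in LLC-NR and was at 4.18 and 4.40 in LLC-R. Pdgfd kept between 2.05 and 2.96 in LLC-NR and between 3.2 and 3.86 in LLC-R along its whole length.

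**Figure D4:**
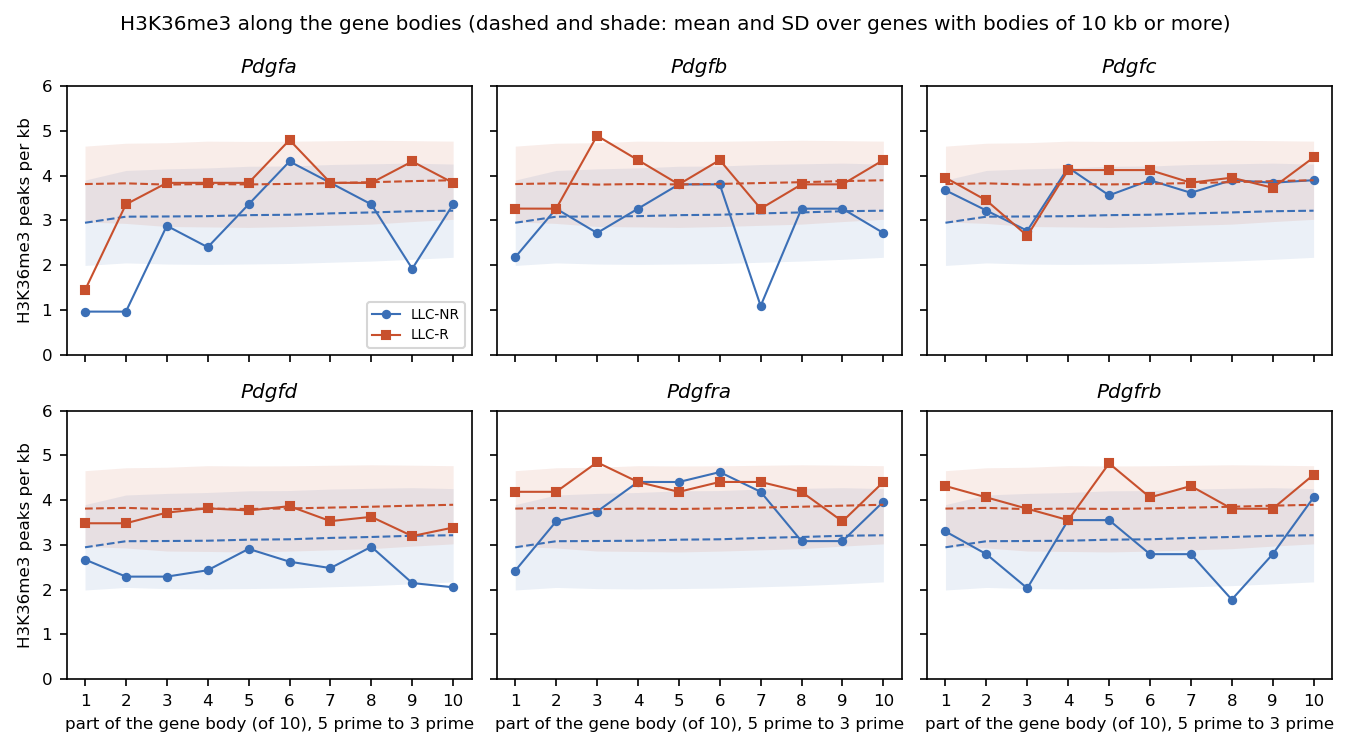
H3K36me3 peaks per kb (y axis) in each of 10 equal parts of the gene body from 5′ to 3′ (x axis) for the 6 PDGF genes, with circles for LLC-NR and squares for LLC-R; dashed lines and shades are the mean and SD over genes with bodies of 10 kb or more. Pdgfa starts at 0.96 and 1.44, below both shades, and Pdgfc has nearly overlapping lines.

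Of the other marks in gene bodies, H3K27me3 over Pdgfb stood out in level. It had 4.24 peaks per kb in LLC-NR and 4.67 in LLC-R, at percentiles 95.7 and 98.1 of all genes, and at 98 and 99.9 among genes with bodies of 10 kb or more. H3K4me3 over the same body was 3.26 in both lines and H3K9ac was 4.24 and 4.18 (percentiles 73.8 and 93.2), so the Pdgfb body was dense in all 3 marks. H3K4me3 over the Pdgfa body rose in number from 2.45 to 3.12 peaks per kb (log2 ratio 0.34, -0.21 to 0.90), and over the Pdgfrb body from 2.23 to 2.66 (0.25, -0.17 to 0.67). The intervals of the log2 ratios of H3K4me3, H3K9ac and H3K27me3 included 0 for all 6 bodies, and the share of all bodies with such intervals was not counted. The H3K4me3 ratios of Pdgfa and Pdgfrb ranked at percentiles 94.1 and 89.2 of all bodies. Beside genes of like level in LLC-NR, the share below a member in LLC-R ran from 25.5% (Pdgfc) to 97.4% (Pdgfa) in H3K4me3. It ran from 25.6% (Pdgfc) to 96.2% (Pdgfb) in H3K9ac and from 38.2% (Pdgfd) to 99.2% (Pdgfb) in H3K27me3.

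The regions around Pdgfa and Pdgfrb held a larger share of H3K4me3 peaks in LLC-R. Within 1 Mb on either side of the TSS, the log2 ratio of the share of peaks was 0.18 at Pdgfrb (0.12 to 0.23), at percentile 94.6 of 1287 bins of 2 Mb. It was 0.15 at Pdgfa (0.09 to 0.21, percentile 93.0). Both lay inside the central 95% of bins, which ran from -0.21 to 0.24. At Pdgfrb the other marks were at 0.04 (H3K9ac), 0.01 (H3K27me3) and 0.09 (H3K36me3), and chromosome 18 as a whole was at 0.20, 0.10, 0.12 and 0.16 for H3K4me3, H3K9ac, H3K27me3 and H3K36me3. The larger H3K4me3 share at Pdgfrb was thus close to that of its chromosome. The window of Pdgfa itself was at 0.06 in H3K9ac, 0.03 in H3K27me3 (-0.02 to 0.08) and 0.15 in H3K36me3. The window 6 Mb toward the centromere from Pdgfa had ratios of 0.34 for H3K4me3, 0.28 for H3K9ac, 0.41 for H3K27me3 and 0.34 for H3K36me3, and chromosome 5 as a whole was at 0.08, 0.03, 0.07 and 0.06. Copy number was not measured, and the part of these regional shares in the gene values was not tested.

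**Figure D5:**
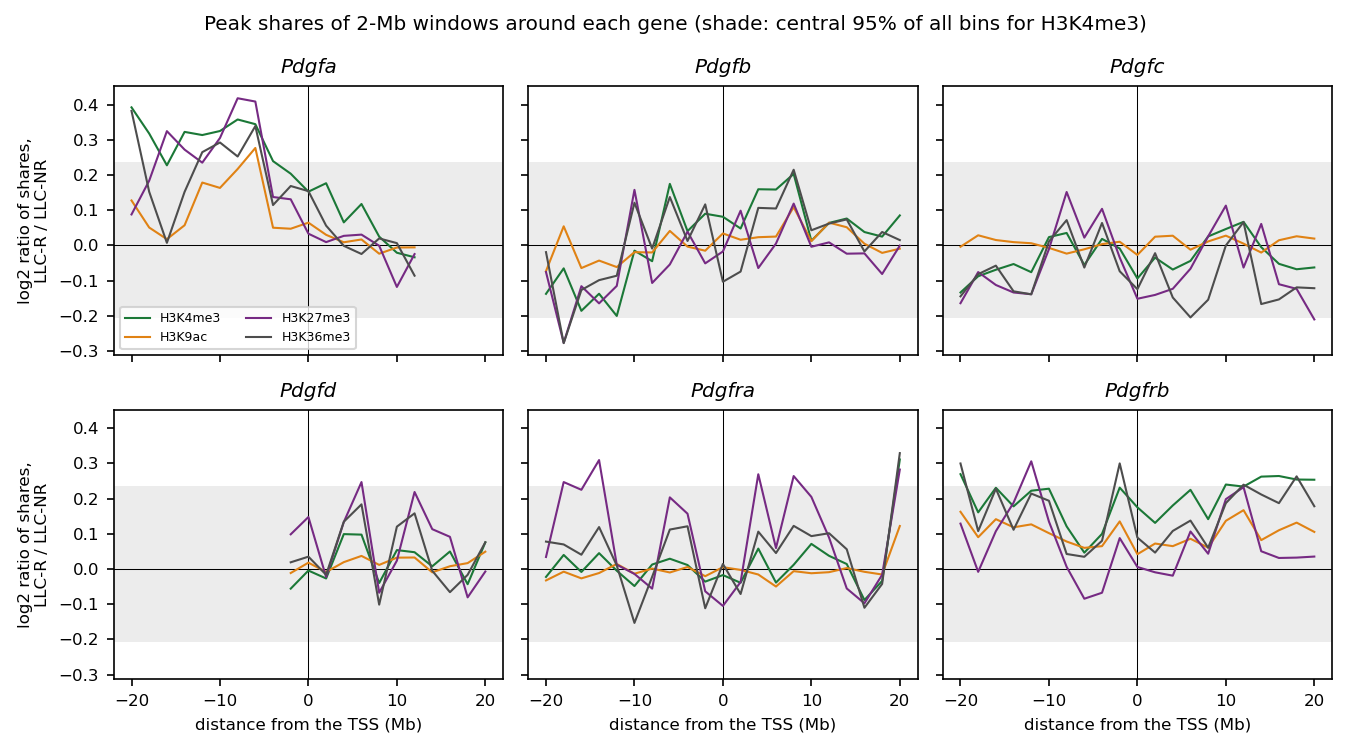
Log2 ratio of peak shares, LLC-R over LLC-NR, in windows of 2 Mb (y axis) against distance from each TSS in Mb (x axis), 1 line per mark; the shade is the central 95% of all bins for H3K4me3, -0.21 to 0.24. All 4 marks rise to between 0.28 and 0.41 at 6 Mb to the left of Pdgfa, and H3K4me3 stays above 0 around Pdgfrb.

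At the other 4 genes the H3K4me3 share was 0.08 (Pdgfb), -0.09 (Pdgfc), -0.00 (Pdgfd) and -0.02 (Pdgfra). The window of Pdgfc was below 0 in all 4 marks, with H3K9ac at -0.03 (-0.08 to 0.02), H3K27me3 at -0.15 and H3K36me3 at -0.12. In H3K4me3, H3K9ac, H3K27me3 and H3K36me3 it lay at percentiles 16.0, 23.5, 7.07 and 14.9 of the bins. Chromosome 3 as a whole was at -0.02, 0.02, -0.05 and -0.07 in that order. The part of this window in the lower H3K4me3 promoter count and H3K36me3 body ratio of Pdgfc was not tested. The window of Pdgfd was at 0.15 in H3K27me3, and at 0.07 when widened to 4 Mb, beside its 2 added H3K27me3 promoter peaks. Pdgfra, on the same chromosome as Pdgfa, had -0.11 in H3K27me3 and 0.01 in H3K36me3, the latter being -0.07 (-0.10 to -0.03) over 4 Mb.

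Genes that act with the PDGF family were counted as a list of 51, of which 50 were found. It held related receptors, proteins that process or bind the ligands, and signaling proteins downstream of the receptors. In H3K4me3, 1 of 50 was higher in LLC-R by 1.5-fold or more (8.63% of all promoters) and 1 lower (7.66%). Stat5a, a transcription factor activated by the receptors, went from 4 to 6 peaks (log2 ratio 0.62), and Pik3cb, a catalytic subunit of phosphoinositide 3-kinase, from 7 to 4 (-0.66). In H3K9ac 0 were higher (4.5% of all promoters) and 2 lower (6.8%), the adaptor gene Nck2 with 7 and 4 peaks (-0.60) and Flt4, which encodes VEGFR-3, with 4 and 2 (-0.72). In H3K27me3 7 were higher (12.4% of all) and 3 lower (4.82%). The median log2 ratio of the list was 0.08 in H3K4me3, as over all promoters, -0.07 in H3K9ac against -0.04, and -0.02 in H3K27me3 against 0.

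Marker genes of stromal, vascular and blood cell types and of lung epithelium were counted in the same libraries, 7 genes per list. Summed H3K4me3 peaks were 34 in LLC-NR and 31 in LLC-R for fibroblast markers, 35 and 30 for pericyte and smooth muscle markers, 28 and 23 for endothelial and 34 and 29 for leukocyte markers. Summed H3K9ac peaks were 49 and 37 for fibroblast, 41 and 42 for pericyte, 36 and 38 for endothelial and 48 and 36 for leukocyte markers. Summed H3K27me3 peaks were 37 and 45, 42 and 44, 41 and 42, and 38 and 42 in that order. H3K9ac of the fibroblast and leukocyte markers was thus lower in LLC-R, by more than the mean promoter ratio of 0.901. The same held for the lung epithelium markers, with H3K9ac sums of 42 and 35. The fibroblast and leukocyte lists each had a high median H3K9ac count of 7 in LLC-NR. Among all promoters, those starting at 6, 7 or 8 H3K9ac peaks averaged 5.44, 5.73 and 6.03 in LLC-R. Higher starts thus fell further, and the part of start level in the lower marker sums was not tested. H3K9ac of the 2 PDGF receptors was 6 and 6 and 8 and 6 peaks. The tissue label of the tumors is lung, and of 7 lung epithelium markers 0 were active in either line. Of all promoters 29.8% (LLC-NR) and 28.4% (LLC-R) were active. Active in LLC-NR and LLC-R were 2 and 0 fibroblast, 0 and 1 pericyte, 1 and 1 endothelial and 1 and 2 leukocyte markers. The lung epithelium markers held 32 and 35 H3K4me3 peaks in all and at least 2 at each. No marker of the 5 lists was at 0 in H3K4me3 in either line, where 4.86% (LLC-NR) and 4.87% (LLC-R) of all promoters were. Windows of 1.5 kb more than 5 kb from any annotated TSS averaged 3.18 (LLC-NR) and 3.19 (LLC-R) H3K4me3 peaks. A count of 2 or 3 was thus below background, and a count above 0 does not show H3K4me3 enrichment. The part of cell composition in the PDGF values was not tested.

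The genes closest in pattern to Pdgfa, Pdgfc, Pdgfd and Pdgfra were found from percentiles over 8 values, the 3 promoter marks and H3K36me3 of the body in both lines, among 19580 genes. The distance is Euclidean, in percentile points. Of these 4, Pdgfra had the nearest match, Dnmt3a at 5.17 and Meis1 at 7.08, with a median distance of 90.0 over all genes. Pdgfd was closest to Gm4937 (8.75) and Kcna4 (11.5) and Pdgfc to 4930528F23Rik (11.7) and Ppip5k1 (22.6). Pdgfa was closest to Synpo2 (23.3) and Sf3b4 (24.2). None of the 2 nearest genes of these 4 was another PDGF gene. So few of the 19580 genes belong to the family that this does not bear on likeness within it.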

How the data were processed

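ChIP-seq libraries of 4 histone marks from LLC-NR and LLC-R isografts were used, 1 per line and mark. Per the submitters' notes and methods, the authors aligned reads with Bowtie 0.12.7 to mm9, allowing 2 mismatches, kept uniquely mapped reads and called peaks per library with GeneTrack, whose settings are not given in the sources used here. The deposited files give the start and end of each 147-bp peak (other unit: positions in bp) and no height, input or strand. A number of peaks is bounded by the space in a region and responds less than read counts to signal and depth. By the submitters' read totals, the LLC-R library of H3K27me3 had 2.14 times and that of H3K36me3 2.32 times the reads of LLC-NR, but 1.26 and 1.36 times the peaks.

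Genes came from GENCODE vM1 on NCBIM37, the assembly of mm9, with the TSS of the largest number of transcripts, or the most upstream in ties. Peaks were counted by midpoint. Promoter log2 ratios have a pseudocount of 10% of the mean promoter. The study's methods assign states from normalized tag counts, with another threshold than its legend. Numbers of peaks and the legend's rule were used here. RefSeq promoter sequences were matched by symbol for 4 of 6 members, and those free of annotated exons were used. The 6 members were all named. Pathway genes past 1.5-fold in H3K4me3 or H3K9ac, the 2 genes nearest in pattern and the neighbours of each member could be named, and only some neighbours were. The genes nearest in pattern to Pdgfb and Pdgfrb are not reported here. The members and lists were chosen with earlier results of these data known. Counting was tested on simulated data. The alternatives covered scaling, regions, overlap, TSS, thresholds and pseudocount. Software was pandas 2.3.3, SciPy 1.17.1 and NumPy 2.4.6 under Python 3.11.15, with Matplotlib 3.10.9 for plots.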

Additional observations from a re-analysis of the deposited data

How the results depend on the processing

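Of 48 alternatives for the family's summed levels, promoter states and regional H3K4me3 shares, 42 left the value within its counting interval or the count unchanged within 1.5 times, and none reversed a called value. The intervals of the summed ratios include 0, so these held no call to reverse. The promoter intervals were wide, -0.67 to 0.73 for H3K9ac, so that even a move from 0.03 to 0.69 counted as within the interval. Division by uniquely mapped reads moved the log2 ratio of H3K27me3 in promoters from -0.07 to -0.91 and that of H3K36me3 in gene bodies from -0.04 to -0.91, and those of H3K4me3 to 0.14 and of H3K9ac to 0.69. Division by background windows gave -0.15 for H3K36me3 in gene bodies. With 2 times the mean as threshold for the active marks, 0 promoters were bivalent in LLC-NR and 0 in LLC-R, in place of 5 in each, since that threshold exceeds the 9 peaks that any promoter held. With the most upstream TSS, 1 promoter was active in LLC-NR in place of 0, and 6 were bivalent in LLC-R in place of 5, the change being that of Pdgfd, whose H3K4me3 ratio went from 0.57 to 0.93, past 1.5-fold. For single promoters, division by uniquely mapped reads put 1 of 6 past 1.5-fold in H3K4me3, 3 in H3K9ac and 5 in H3K27me3, and took Pdgfd in H3K27me3 from 0.30 to -0.55. A pseudocount of 1 peak put none past it in these 3 marks. No paired analysis was possible because each line has 1 library per mark and no result comes from a test. No replicate could be left out. Numbers of peaks cannot separate a weak from a strong peak.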
